A study of Mus musculus with 6 samples.

Results

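miR-146a-5p (MIMAT0000158) and miR-146b-5p (MIMAT0003475) were examined in white adipose tissue (WAT) of ApoE-deficient mice under chronic intermittent hypoxia (CIH). They are 2 of the 707 mature miRNAs whose reads were counted, and they were chosen by their miRBase accession, with earlier results of these counts known. Their levels and fold changes between the groups are therefore given as a description, with no p-value. Whether a member met criteria set at the study's p-value level is stated below as a count, and it is not evidence of a difference. The pairing of accession and name was given with the choice of the members, because the deposited table lists accessions without names.

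Both groups were male ApoE-deficient mice, which lack apolipoprotein E, a protein that clears lipoproteins from the blood. The CIH group (n = 3 libraries) was kept for 8 weeks under repeated cycles of falling and restored oxygen, a model of obstructive sleep apnea, and the control group (n = 3 libraries) was not exposed to CIH. The ages of the mice and the fat depot were not stated, wild-type mice were not among the samples, and nothing in the labels says that the libraries of a group came from separate animals, so the spread given here may be technical. The series addresses which miRNAs change in WAT when the animals are exposed to CIH.

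miR-146a and miR-146b are described as feedback miRNAs of innate immune signalling. Transcription of the miR-146a gene is induced when Toll-like receptors or the interleukin-1 receptor activate NF-kB. Mature miR-146a represses the signalling proteins Traf6 and Irak1, which carry that signal, and miR-146b shares its seed. In fat, miR-146a has been studied in both macrophages and adipocytes, where NF-kB activity accompanies the inflammation of obesity.

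The mature sequences show why the pair is counted as a family and where its reads can be told apart. They are printed 5′ to 3′ from RefSeq (GRCm38.p6), with the seed, bases 2 to 8, in capitals.
mmu-miR-146a-5p: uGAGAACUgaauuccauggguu
mmu-miR-146b-5p: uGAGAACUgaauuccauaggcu
The seed is the main part, though not the only one, through which a miRNA pairs with its targets. It was GAGAACU in both, so the complementary 7 bases in a target are AGUUCUC for either miRNA. Of the 1679 mature entries in the RefSeq table, these 2 alone carried that seed, and 20 of their 22 bases were identical. From miR-146a-5p to miR-146b-5p the differences were G18A and U21C, counted from 1 at the 5′ end. The first 17 bases were shared and occurred in no other mature entry, so a read that ended before base 18 could not be given to either miRNA by its sequence.

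The hairpins from which they are cut differ in length, at 65 bases for Mir146 and 109 for Mir146b. Each is printed on its own strand with the 5p miRNA in capitals, to show where the released stretch lies. Apart from the opposite arms, the rest of the hairpins was not compared.
Mir146: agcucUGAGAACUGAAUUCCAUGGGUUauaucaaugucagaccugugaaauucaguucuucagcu
Mir146b: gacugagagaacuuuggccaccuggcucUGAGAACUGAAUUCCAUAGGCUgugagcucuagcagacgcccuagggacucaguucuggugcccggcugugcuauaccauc
Mir146, the hairpin of miR-146a, lies at chr11:43374397-43374461 on the minus strand of GRCm38. In GENCODE release M21 it lies in no other gene, and the nearest, the noncoding Gm12148, is 11021 bases away. Mir146b lies at chr19:46342762-46342870 on the plus strand, in an intron of the protein-coding gene Mfsd13a by the same annotation, and RefSeq places it within the span of the noncoding gene Gm36493. The opposite arms, lined up from their first bases without gaps, were identical at 4 of 22 bases. Both arms hold the run ucaguucu, at different positions, so that count depends on the alignment and does not measure their likeness. The rows of the opposite arms could not be named in the count table, and these arms are not analysed here.

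The libraries held 636963 to 4783768 miRNA counts and detected 487 to 649 miRNAs. The groups were taken from the titles and treatment labels, which name 3 control libraries, although the description of the RNA extraction speaks only of tissue from CIH models. Control 1 and control 2 stood apart from the rest. They detected 487 and 552 miRNAs, against 631 to 649 in the other libraries, although control 2 held the most counts. Across the 633 miRNAs tested, control 3 correlated with control 1 and control 2 at 0.60 and 0.66 (Pearson, log2 CPM) and with the CIH libraries at 0.96 to 0.97. The TMM factors, which correct library totals for differences in composition, ran from 0.575 in control 1 to 1.45 in CIH 3, so each level is given on both scales. Marker miRNAs of immune cells, endothelium and other cell types could not be matched by name to the accessions, so the cell make-up of the libraries was not tested. In bulk tissue, fewer cells of a type and less miRNA per cell cannot be told apart.

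miR-146a-5p was among the more abundant miRNAs of this tissue, and its highest levels were those of control 1 and control 2. Controls 1, 2 and 3 gave it 8146, 41326 and 1989 reads, and CIH 1, 2 and 3 gave it 2563, 1203 and 1080. As a share of all miRNA counts this was 0.596%, 0.864% and 0.251% in the control libraries (95% Wilson intervals 0.584% to 0.609%, 0.856% to 0.872% and 0.240% to 0.262%). In the CIH libraries the share was 0.162%, 0.163% and 0.170% (0.156% to 0.169%, 0.154% to 0.173% and 0.160% to 0.180%). These intervals cover counting error only, and PCR copies are not independent molecules. The intervals of the 3 CIH libraries overlapped each other, and those of the 3 control libraries did not.

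Scaled by library totals, miR-146a-5p averaged 5704 ± 3073 CPM (counts scaled to a common library total) among the controls and 1650 ± 39.3 CPM under CIH (SD, n = 3 each). On this scale every control library lay above every CIH library, and control 3, the lowest control at 2509 CPM, was 1.48-fold above the highest CIH library. Among all miRNAs tested, 20 of 633 (3.16%) showed this order of the groups.

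After TMM normalization the order was different for control 3. Controls 1 to 3 were at 10364, 9971 and 1793 TMM-normalized CPM, and CIH 1 to 3 at 2058, 1300 and 1171. Control 3 now fell inside the range of the CIH libraries, and the groups overlapped. Of the 633 miRNAs, 19 (3%) had every control library above every CIH library on this scale, and neither member was among them. The ranks within each library, which need no scaling between libraries, showed the same split. miR-146a-5p was the 19th, 14th and 50th most abundant miRNA in controls 1 to 3 and the 49th, 66th and 68th in CIH 1 to 3, so that control 3 stood next to CIH 1.

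**Figure D1:**
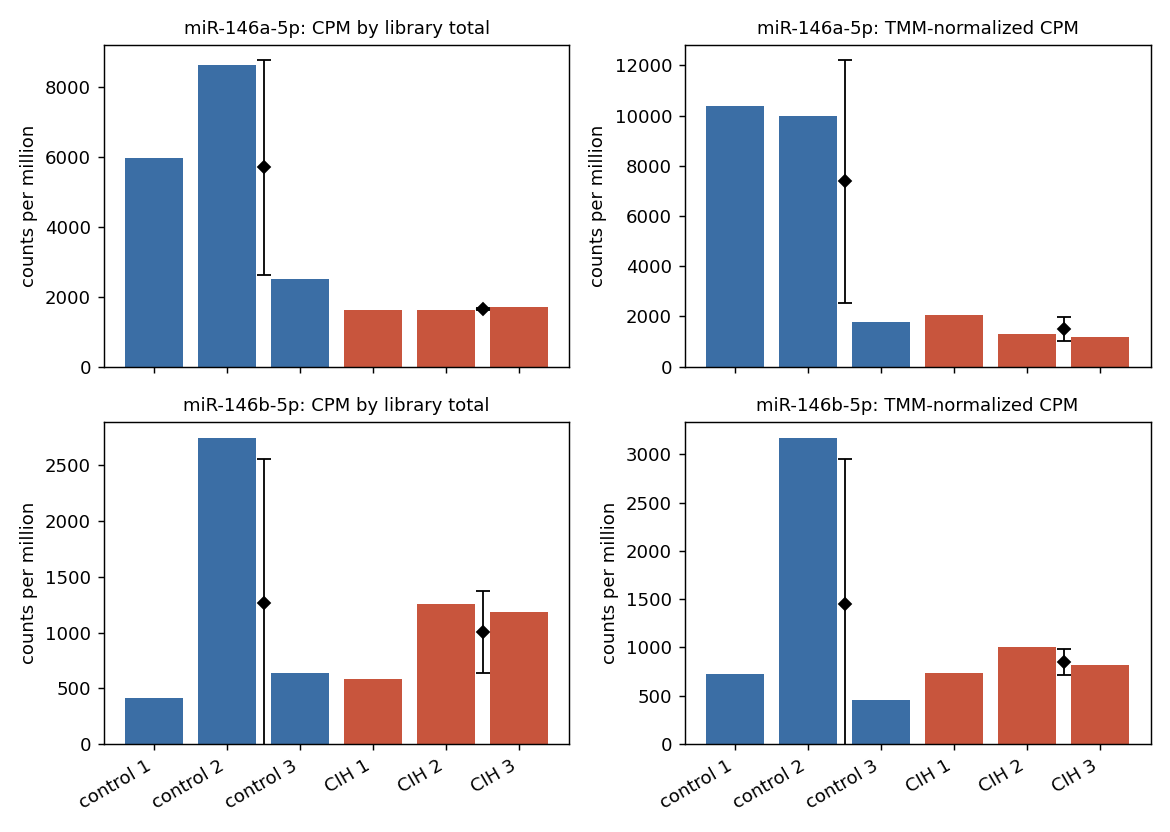
Levels of miR-146a-5p (top) and miR-146b-5p (bottom) in each library, in CPM by library total (left) and after TMM normalization (right), from 0. Blue bars are control and red bars CIH libraries; diamonds with bars are group means ± SD (n = 3), with the lower bar of the miR-146b-5p controls ending at the axis. miR-146a-5p is high in control 1 and control 2, whereas control 3 is at 1793 TMM-normalized CPM, inside the CIH range of 1171 to 2058, and the high mean of miR-146b-5p in the control group comes from control 2.

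miR-146b-5p was less abundant and was high in a single library. Controls 1 to 3 gave it 567, 13141 and 502 reads, and CIH 1 to 3 gave it 920, 928 and 752. Scaled by library totals controls 1 to 3 were at 415, 2747 and 633 CPM, against 583, 1258 and 1181 CPM for CIH 1 to 3. After TMM normalization controls 1 to 3 were at 721, 3170 and 452 CPM, against 739, 1003 and 816 CPM for CIH 1 to 3. Control 2 stood above every CIH library on both scales, and control 1 and control 3 lay below every CIH library after TMM normalization, so the groups overlapped.

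The mean of miR-146b-5p was 1448 ± 1498 TMM-normalized CPM for the controls and 852 ± 136 under CIH (SD, n = 3 each). Control 2 held 73.0% of the summed control level. The difference between the means was smaller than the SD of the control group, and the median control library, at 721, was below the median CIH library, at 816. For miR-146a-5p, control 1 and control 2 held 46.8% and 45.1% of the summed control level, and its mean on the same scale was 7376 ± 4839 for the controls and 1510 ± 479 under CIH (SD, n = 3 each).

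The balance between the 2 miRNAs can be read within each library, where it does not depend on the library total or on TMM factors. miR-146b-5p made up 6.51%, 24.1% and 20.2% of the counts of both in the control libraries (95% Wilson intervals 6.01% to 7.04%, 23.8% to 24.5% and 18.6% to 21.8%). It made up 26.4%, 43.5% and 41.0% in the CIH libraries (25.0% to 27.9%, 41.5% to 45.7% and 38.8% to 43.3%). Every CIH library was above every control library, with CIH 1 and control 2 the closest, and those intervals did not overlap.

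Read as a ratio, miR-146a-5p had 14.4, 3.14 and 3.96 reads for each read of miR-146b-5p in controls 1 to 3, against 2.79, 1.30 and 1.44 in CIH 1 to 3. The mean log2 ratio (0.5 added to each count) was 2.49 ± 1.18 for the controls and 0.79 ± 0.60 under CIH (SD, n = 3 each), a difference of -1.70. With control 3 as the only control the difference was -1.19, and without control 1 it was -1.03. Of the 632 other miRNAs tested, 19 (3.01%), miR-146a-5p included, had a ratio to miR-146b-5p that was higher in every control than in every CIH library. A ratio shows unequal levels of the pair and not which of them changed.

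**Figure D2:**
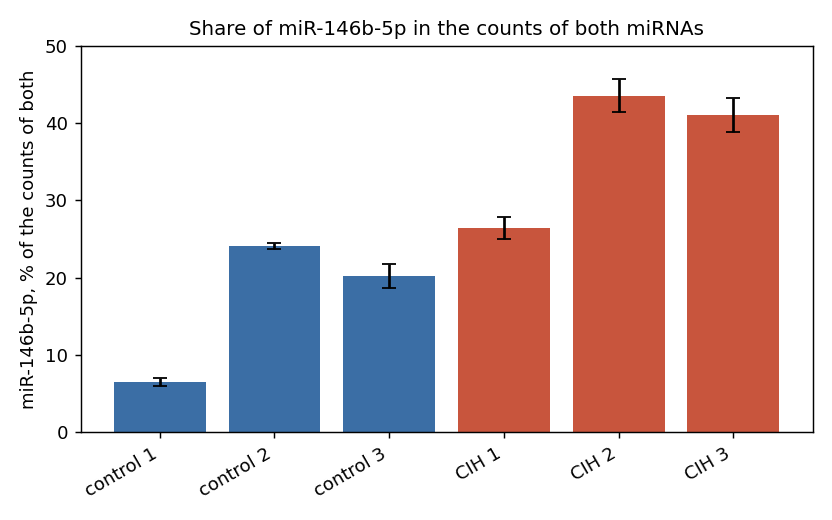
Share of miR-146b-5p in the summed counts of miR-146a-5p and miR-146b-5p in each library, in percent from 0; blue bars are control and red bars CIH libraries, and error bars are 95% Wilson intervals for counting error. The control libraries run from 6.51% to 24.1% and the CIH libraries from 26.4% to 43.5%, so the groups do not overlap.

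Because the seed is shared, the sum of both miRNAs gives the level of the seed family. It was 6379, 11386 and 3142 CPM for controls 1 to 3 and 2207, 2889 and 2876 CPM for CIH 1 to 3, with every control library above every CIH library. The lowest control was only 1.09-fold above the highest CIH library. Among single miRNAs on this scale, 20 of 633 (3.16%) showed this order of the groups. After TMM normalization it was 11086, 13141 and 2245 CPM for controls 1 to 3 and 2797, 2302 and 1987 CPM for CIH 1 to 3, and control 3 again fell inside the CIH range. miR-146a-5p was the larger part of the sum in all 6 libraries. By library totals, the sum among the CIH libraries varied with miR-146b-5p, since miR-146a-5p lay between 1624 and 1696 CPM in all 3. After TMM normalization miR-146a-5p fell from 2058 in CIH 1 to 1300 in CIH 2 and 1171 in CIH 3. On that scale the sum fell in the same order, and miR-146b-5p was lowest in CIH 1, where the sum was highest.

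All 633 miRNAs with at least 10 counts over the 6 libraries were fitted with TMM factors and the quasi-likelihood test of edgeR. The fitted log2 fold change of CIH against control was -2.29 (standard error 0.86) for miR-146a-5p, a 4.88-fold lower level. It was -0.76 (standard error 0.87) for miR-146b-5p, a difference smaller than its standard error. The median over all miRNAs tested was 0.07. The fold change of miR-146a-5p was below that of all but 45 miRNAs, and 169 miRNAs had a lower value than miR-146b-5p.

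DEmiRs were counted by an unadjusted p-value under 0.05 with a change of at least 1.5-fold, the study's level with the fold lines of its volcano plot. These criteria were met by 1 of the 2 members, miR-146a-5p, with the lower level under CIH. It no longer met them in 5 of the 6 fits that left out 1 library (control 1, control 2, CIH 1, CIH 2 or CIH 3), or with the replicate number as a block. The background was 16 of 633 miRNAs (2.53%) in either direction and 13 (2.05%) downregulated, and nothing is read from the count of members because they were chosen with this contrast known. miR-146a-5p was the most abundant of the 16 by its mean level over the 6 libraries, 4443 TMM-normalized CPM, followed by 1446 for the next. After Benjamini-Hochberg adjustment, 0 of 633 miRNAs (0.00%) had a p-value under 0.05 with edgeR's quasi-likelihood test, against 16 without adjustment, and DESeq2, edgeR's exact test and limma voom gave 0 as well.

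**Figure D3:**
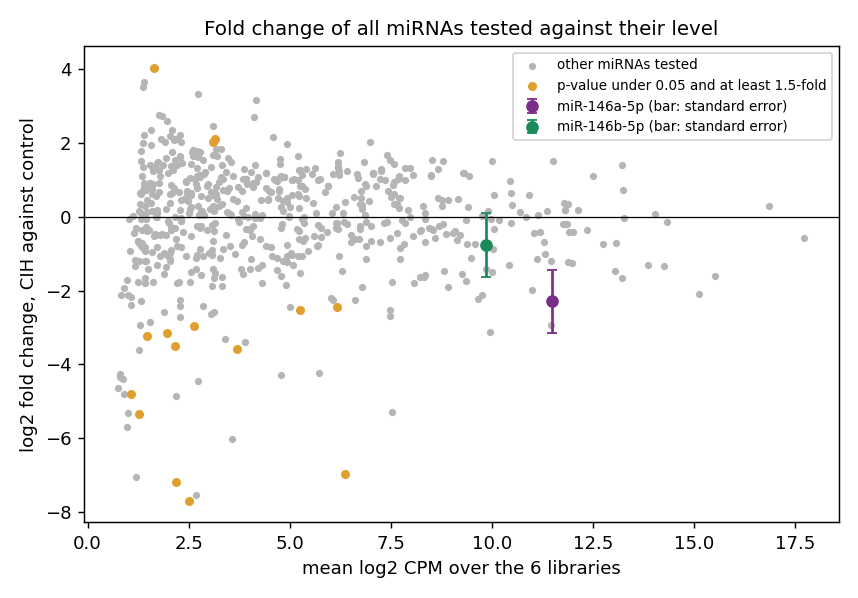
Log2 fold change of CIH against control for the 633 miRNAs tested (vertical axis) against their mean log2 CPM over the 6 libraries (horizontal axis). Orange points met the unadjusted criteria, and error bars on both members are standard errors. miR-146a-5p at -2.29 lies further to the right than the other orange points, and miR-146b-5p at -0.76 lies near 0 relative to its standard error of 0.87.

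The fold change of miR-146a-5p rested on control 1 and control 2 together, and that of miR-146b-5p on control 2. With control 3 as the only control library, the log2 fold change of miR-146a-5p was -0.16 and that of miR-146b-5p was 1.01, where the lone control is assumed to vary like the CIH libraries. Without control 1, control 2 or control 3, miR-146a-5p was at -1.98, -1.96 and -2.75 in place of -2.29. Under the same omissions miR-146b-5p was at -1.11, 0.60 and -1.19 in place of -0.76. The part of the other differences between these libraries in the levels of the members was not tested.

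**Figure D4:**
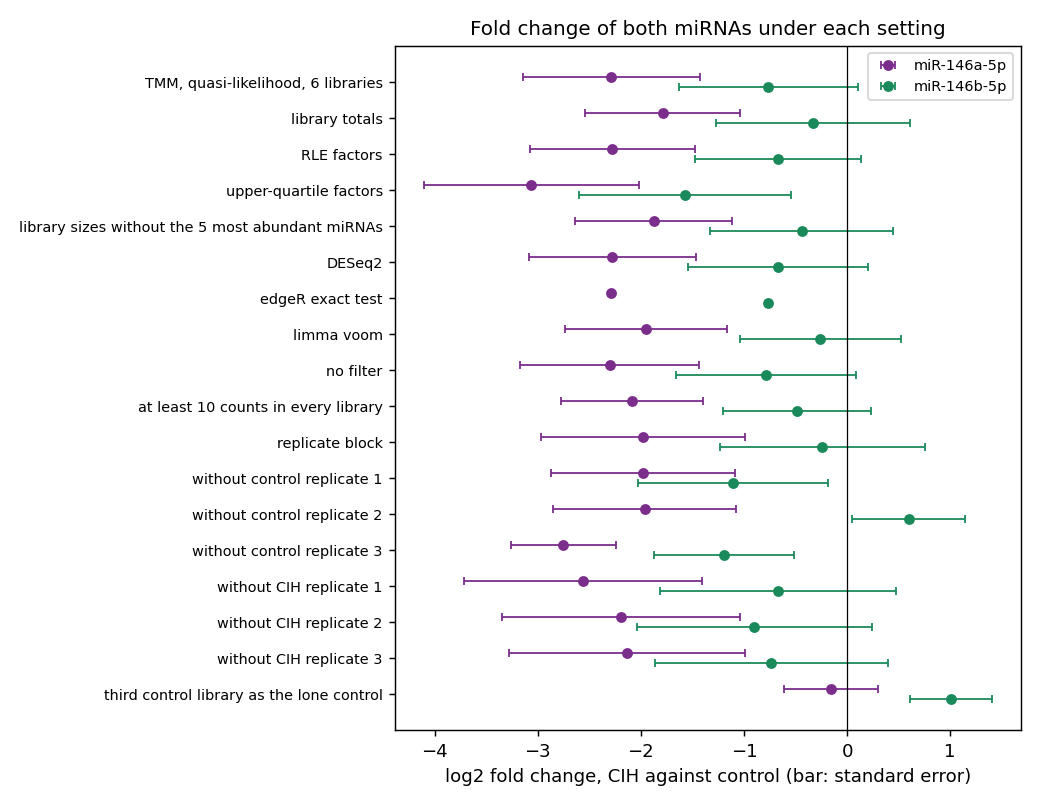
Log2 fold change of CIH against control (horizontal axis) for miR-146a-5p (purple) and miR-146b-5p (green) under each setting (vertical axis), with standard errors except for the exact test, which gives none. miR-146a-5p stays between -3.06 and -1.79 until control 3 is the lone control (-0.16), whereas miR-146b-5p moves to 0.60 without control 2.

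The 2 miRNAs did not follow the same pattern over the 6 libraries. Likeness was measured as the root mean square difference of log2 CPM, after each miRNA was centred on its own mean, among miRNAs with a mean of at least 10 TMM-normalized CPM. The difference between the members was 1.14, and 104 of the 394 miRNAs compared were closer to miR-146a-5p than miR-146b-5p was. The closest to miR-146a-5p was MIMAT0025123 at 0.39, and the 5 closest had log2 fold changes of -2.46 to -1.30. Of these 5, MIMAT0000165 alone met the unadjusted criteria, with 254, 1190 and 33 reads in controls 1 to 3 and 73, 18 and 35 in CIH 1 to 3. The closest to miR-146b-5p was MIMAT0005438 at 0.23, with 95, 1792 and 99 reads in controls 1 to 3 and 181, 124 and 110 in CIH 1 to 3, and it was likewise highest in control 2.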

How the data were processed

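The authors deposited raw read counts per mature miRNA for 6 WAT libraries, without normalization. Trimming, alignment, the miRNA database release and the treatment of multiply matching reads are not given in the sources used here, and the last bears on 2 miRNAs that differ at 2 bases. Libraries were grouped by their titles, which the treatment labels match; the extraction text mentions CIH models only. No 2 libraries agreed within sampling noise (chi-square test).

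Counts of the 633 miRNAs with at least 10 counts in all were fitted with edgeR 4.0.16 under R 4.3.3 (TMM, quasi-likelihood, no covariate). A standard error is the fold change over the root of its F statistic. Alternatives used DESeq2 1.42.0, limma 3.58.1, other factors, other filters, a replicate block and each library left out. Python 3.11.15 with scipy 1.17.1 gave intervals and ratios. The fitting code was first run on simulated counts. Its pass limits applied only to the setting with the least spread between libraries, so it does not show how the fit behaves on these libraries. The members and the miRNA lists were chosen with earlier results of these data known. The rule for named miRNAs took the members, others with their seed, named lists of inflammatory and cell type miRNAs, and the 5 most alike in pattern. The lists were not run because accessions are not paired with names, and of the most alike the first for each member and the only DEmiR are named. No column was left out.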

Additional observations from a re-analysis of the deposited data

How the results depend on the processing

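Of the 16 alternatives planned, all kept the log2 fold change of miR-146a-5p below 0 and 10 kept it within the unadjusted criteria. The 6 that did not were the replicate block and the fits without control 1, control 2, CIH 1, CIH 2 or CIH 3. With each library left out in turn it ran from -2.75 to -1.96, and that of miR-146b-5p from -1.19 to 0.60, above 0 without control 2 alone. With other factors, filters, tools and the block, the ranges were -3.06 to -1.79 and -1.57 to -0.24, and relative to the median of all miRNAs, which moved from -0.52 (upper-quartile factors) to 0.37 (limma voom), they were -2.55 to -2.03 and -1.06 to -0.44. With control 3 as the lone control, a setting chosen after seeing the data, they were -0.16 and 1.01. When a library was left out, the difference in the log2 ratio lay between -2.12 and -1.03. Adjusted p-values under 0.05 were reached by 0 miRNAs with the original settings and by 0 to 118 when a library was left out. The 118 were those without control 3, and they included miR-146a-5p but not miR-146b-5p. Nothing is read from this, because the members were chosen with this contrast known. The number meeting the unadjusted criteria, 16, ran from 1 (without CIH 3) to 238 (without control 3), and was 6 without CIH 1 or CIH 2. It was 39 with upper-quartile factors, 26 with DESeq2, 29 with the exact test and 75 with limma voom. The cause was not tested. Libraries 1, 2 and 3 of both groups carry the same numbers, and their deviations within each group correlated at 0.35, -0.12 and 0.02. Libraries of unlike numbers were not compared, so these values cannot decide whether the libraries were paired. The groups were fitted as unpaired. With the replicate block, 3 miRNAs met the unadjusted criteria and 0 had an adjusted p-value under 0.05, and the fold changes were -1.98 and -0.24. The members had at least 502 counts in every library. Control 2, the library with the most counts, was also the highest in miR-146b-5p, and the part of depth in the levels was not tested.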
